A study of Mus musculus with 21 samples.

Results

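The comparison described here is the interaction of a LAP transgene with loss of Blnk in B220-positive bone marrow cells, measured on 12 of the 21 arrays of the series. The members were chosen by their labels: 3 arrays each of LAP tg/Blnk KO, Blnk KO, LAP tg and wild-type marrow. LAP tg/Blnk KO mice carry the Cebpb LAP transgene and lack Blnk, Blnk KO mice lack Blnk only, LAP tg mice carry the transgene only, and wild-type mice have neither change. The series calls these marrow B cells non-neoplastic, and a cell sorter separated them. The other 9 arrays are of a leukaemia line and entered only the choice of each gene's probe set and 1 alternative fit. The labels give neither the promoter that drives the transgene, nor the age and sex of the mice, nor whether the 3 arrays of a group came from separate animals. The p-values therefore measure only how far these samples spread, and that spread may be technical.

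BLNK is an adaptor protein: once the pre-B cell receptor or the B cell receptor is engaged, the kinase SYK phosphorylates it, and it brings phospholipase C gamma, BTK and VAV together. Signals through it stop the expansion of large pre-B cells and promote light chain rearrangement and maturation. C/EBPβ is a transcription factor of myeloid and other cells, LAP is its activating isoform, and C/EBP factors can turn B-lineage cells towards a myeloid programme.

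The interaction is a difference of differences, the LAP change in Blnk KO marrow less that in wild-type marrow, in log2 units of normalized signal. It is 0 where the changes with LAP and with Blnk loss add on the log2 scale, that is, where their fold changes multiply. The same number is the observed level in LAP tg/Blnk KO marrow minus an expected level, the Blnk KO mean plus the LAP tg mean minus the wild-type mean. A negative value therefore means a lower signal in LAP tg/Blnk KO marrow than the single changes add up to. Each gene is represented by 1 probe set, and its values are log2 of signal plus 4, then quantile normalized. Every adjusted p is from limma with Benjamini-Hochberg adjustment over all 13342 genes tested, two-sided, with n = 3 arrays per group. The threshold for a called gene was an adjusted p below 0.05, and interactions are given ± SE.

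Departures from additivity were called for 231 of 13342 genes, or 1.73%, and 166 of these (1.24%) lay below the expected level and 65 (0.487%) above it. At an unadjusted p under 0.05 there were 1994. Of the called genes 127 departed by at least 2-fold, 98 of them below and 29 above. The median interaction over all genes tested was 0.02, the median SE was 0.23, and the median 95% confidence interval reached 0.496 to either side before any adjustment for the number of genes. The smallest called departure was 0.43.

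**Figure D1:**
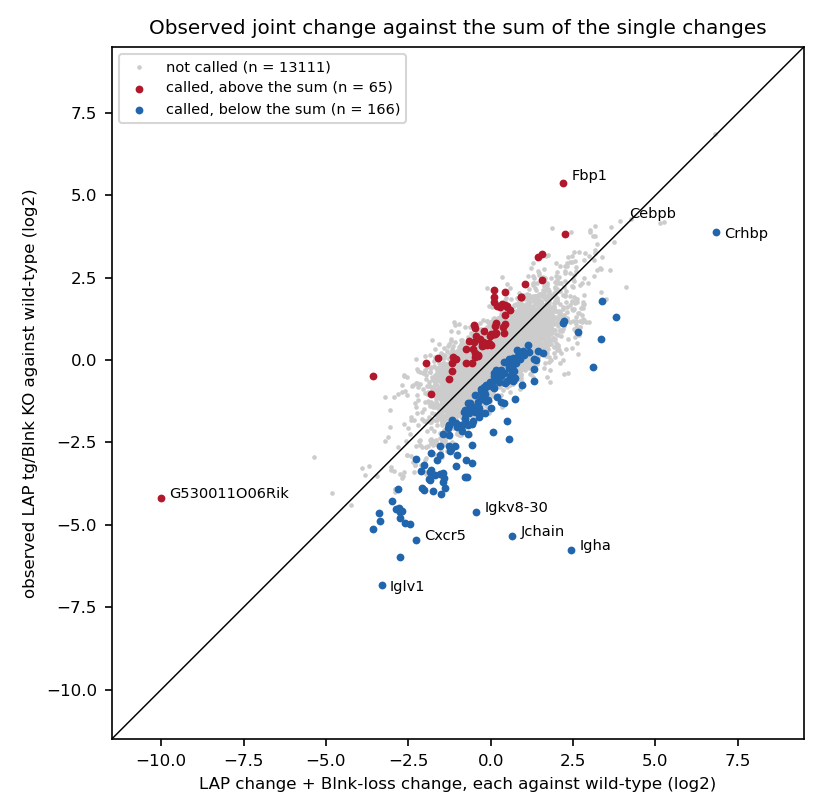
Observed log2 change of LAP tg/Blnk KO against wild-type marrow (vertical axis) against the sum of the LAP change and the Blnk-loss change, each against wild-type (horizontal axis), for 13342 genes. The line marks additivity. The 166 blue genes lie below it and the 65 red genes above it. Igha, at -8.20, lies furthest below, and G530011O06Rik, at 5.83, furthest above.

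Called genes below the expected level had a median interaction of -1.13. Their median LAP change was -0.97 in Blnk KO marrow and 0.08 in wild-type marrow. The LAP change in Blnk KO marrow was negative for 160 of the 166, whereas in wild-type marrow it was negative for 72 and positive for 94. All 3 LAP tg/Blnk KO arrays lay below the other 9 marrow arrays for 129 of the 166, a pattern that 6.51% of all genes tested had. Called genes above the expected level had a median interaction of 0.96, with a median LAP change of 0.60 in Blnk KO marrow and -0.30 in wild-type marrow. For 49 of these 65 all LAP tg/Blnk KO arrays lay above the other 9, against 7.23% of all genes tested. For 25 of the 65 the LAP tg arrays lay below the other 9, against 3.16%. These counts describe the parts of which the interaction is made and are no separate evidence for it.

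Checks of the labels came first. Blnk, as seen by its only probe set, did not follow the knockout label. Its log2 signals were 12.04, 11.79 and 11.97 on the LAP tg/Blnk KO arrays and 12.47, 12.28 and 12.01 on the Blnk KO arrays. They were 12.28, 12.22 and 11.998 in LAP tg and 12.27, 12.41 and 12.27 in wild-type marrow, so the groups overlapped. Since the labels do not say which part of the gene was deleted, its signal checks nothing, and Blnk loss rests on the labels. Cebpb, on the probe set that represents it, followed the transgene label in both backgrounds. Its log2 signals were 9.97, 9.86 and 9.81 in LAP tg/Blnk KO, 4.87, 5.21 and 5.61 in Blnk KO, 10.16, 9.87 and 10.01 in LAP tg and 5.54, 5.74 and 5.68 in wild-type marrow. The LAP change of Cebpb on it was 4.65 ± 0.16 in Blnk KO and 4.36 ± 0.16 in wild-type marrow, and its interaction, 0.29 ± 0.22, was not called (adjusted p = 0.603). On the other Cebpb probe set the LAP change was only 0.14 in Blnk KO and 0.98 in wild-type marrow, and the interaction of -0.84 was not called either, so the mean over both probe sets had the opposite sign (-0.28). Xist was high on all 12 arrays, from 12.48 to 12.75, with an interaction of -0.06 ± 0.07 (adjusted p = 0.747).

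The cells carried B-lineage transcripts in all 4 groups. Ptprc, which encodes the CD45 protein whose B-cell form is B220, had mean log2 signals of 11.81 in LAP tg/Blnk KO, 12.10 in Blnk KO, 12.39 in LAP tg and 12.56 in wild-type marrow. Cd79b, a signalling chain of the B cell receptor, averaged 12.18 in LAP tg/Blnk KO, 12.53 in Blnk KO, 12.85 in LAP tg and 12.96 in wild-type marrow. Ebf1, a transcription factor that specifies the B lineage, averaged 11.68 in LAP tg/Blnk KO, 11.52 in Blnk KO, 10.77 in LAP tg and 11.13 in wild-type marrow. None of these, nor Cd79a or Pax5, had a called interaction. Sorted marrow is a mixture of B-cell stages, and fewer cells of a stage and less RNA per cell cannot be told apart in such bulk samples.

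Surface proteins of maturing and mature B cells formed the list with the most called departures. Of 22 measured, 13 lay below the expected level and 0 above, against 1.24% of all genes tested called below. The list's median interaction was -1.05, beside 0.02 for all genes, 21 of 22 values were negative, and 18 members had all LAP tg/Blnk KO arrays below the other 9 (background 6.51%). The list was chosen with results of these data known, and its count is a description.

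Ms4a1, which encodes the B-cell surface protein CD20, showed the pattern with little spread. Its log2 signals were 9.81, 9.59 and 9.70 in LAP tg/Blnk KO and 12.34, 12.57 and 12.21 in Blnk KO marrow. In LAP tg marrow they were 12.77, 12.71 and 12.60, and in wild-type marrow 12.81, 12.84 and 12.81. The LAP tg/Blnk KO arrays were far below the other 9, and the groups with 1 change lay close to wild-type. The LAP transgene lowered Ms4a1 6.37-fold in Blnk KO marrow, against a 1.09-fold difference in wild-type marrow that was not called. The interaction was -2.54 ± 0.12 (adjusted p = 2.21e-07), a level 5.82-fold below the expected one, and a further Ms4a1 probe set gave -2.78.

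Fcer2a, the low-affinity IgE receptor CD23 of mature B cells, had log2 signals of 4.16, 4.61 and 3.11 in LAP tg/Blnk KO marrow and 7.88, 8.06 and 7.96 in Blnk KO marrow. LAP tg arrays had 9.12, 9.15 and 9.12, and wild-type arrays 9.97, 10.03 and 9.76. The 4 groups did not overlap. Its interaction was -3.22 ± 0.38 (adjusted p = 0.000776), and the LAP change was -4.01 in Blnk KO marrow and -0.79 in wild-type marrow. Cxcr5, the receptor that guides B cells into follicles, gave 4.15, 4.20 and 3.40 in LAP tg/Blnk KO, 7.86, 8.12 and 7.84 in Blnk KO, 8.53, 8.46 and 8.58 in LAP tg and 9.36, 9.43 and 9.33 in wild-type marrow. Here too the groups were separate, with an interaction of -3.18 ± 0.25 (adjusted p = 3.22e-05). For both genes the LAP tg/Blnk KO mean lay under 4.20, the level of the filter for dim probe sets, so the size of the departure may be understated.

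Other members called below the expected level were Ltb, a lymphotoxin subunit needed for lymphoid organ structure (-2.84 ± 0.33), and Btla, an inhibitory receptor (-2.53 ± 0.26). Cd40, the receptor for T-cell help, gave -2.29 ± 0.31, and Ccr7, the receptor for entry into lymph nodes, -1.88 ± 0.17. The IgM Fc receptor gene Fcmr gave -1.65 ± 0.20, the complement receptor gene Cr2 -1.24 ± 0.25 and the scaffold gene Bank1 -0.70 ± 0.14. Departures of Cd180 (-0.44 ± 0.23), Cd86 (-0.29 ± 0.31) and Ly9 (-0.08 ± 0.13) were not called. Slamf6 was the 1 member with a positive value, 0.44 ± 0.19, also not called. Ly6d, a surface marker of B-lineage commitment that is not on this list, was among the 14 called genes furthest below the expected level, at -2.55 ± 0.24 (adjusted p = 0.000133).

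**Figure D2:**
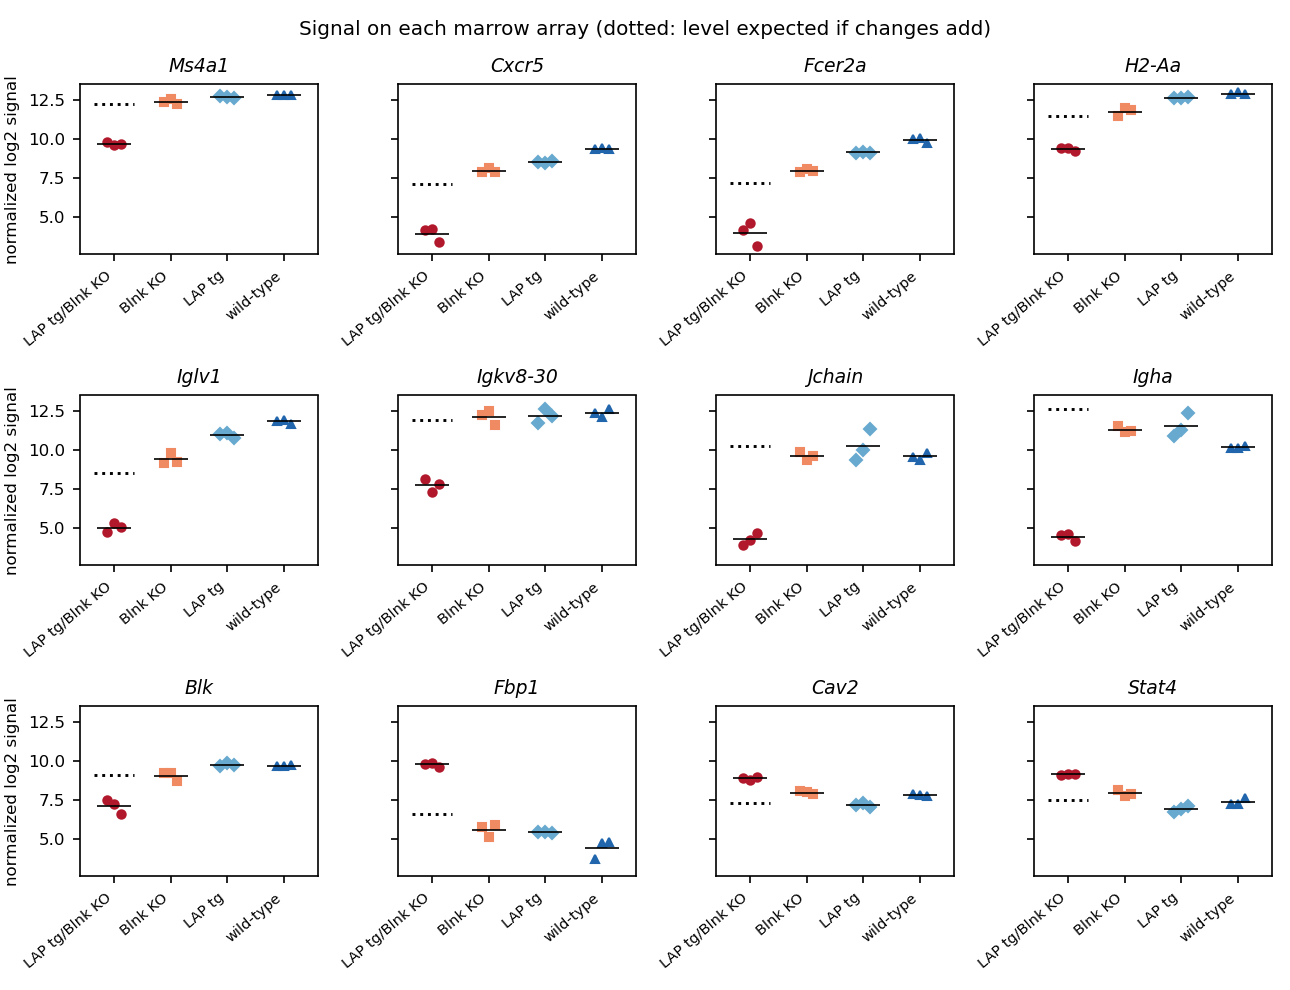
Normalized log2 signal on each of the 12 marrow arrays for 12 genes, with LAP tg/Blnk KO, Blnk KO, LAP tg and wild-type marrow from left to right. Points are arrays, short lines are group means of 3, and the dotted line is the level expected for LAP tg/Blnk KO marrow if the changes add. The observed points lie below the dotted line for the first 9 genes, from Ms4a1 to Blk, and above it for Fbp1, Cav2 and Stat4.

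Genes of antigen presentation by MHC class II were next. These molecules show peptides to helper T cells and are made by B cells. Of 10 measured, 4 were called below the expected level and 0 above, against 1.24% of all genes tested called below, and the median interaction was -0.89. All 10 values were negative, and for all 10 the LAP tg/Blnk KO arrays lay below the other 9 (background 6.51%). H2-Aa, the alpha chain of I-A, had log2 signals of 9.40, 9.39 and 9.22 in LAP tg/Blnk KO and 11.45, 11.97 and 11.83 in Blnk KO marrow. Its LAP tg arrays had 12.62, 12.62 and 12.70, and its wild-type arrays 12.86, 12.997 and 12.86. The 4 groups did not overlap, and the interaction was -2.16 ± 0.15 (adjusted p = 1.38e-05). Its other 3 probe sets gave -2.91, -2.22 and -2.70.

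H2-DMb2, a chain of the peptide-loading molecule H2-M, departed by -2.36 ± 0.23, and Cd74, the invariant chain that guides class II molecules to endosomes, by -1.93 ± 0.27. H2-Eb1, the beta chain of I-E, departed by -1.86 ± 0.25. Ciita encodes the coactivator that class II genes depend on, and its departure of -0.70 ± 0.26 was not called (adjusted p = 0.234). Its group means were 4.46 in LAP tg/Blnk KO, 5.73 in Blnk KO, 7.33 in LAP tg and 7.90 in wild-type marrow. H2-Ab1 (-0.91 ± 0.25, adjusted p = 0.0956), H2-DMa (-0.87 ± 0.23, adjusted p = 0.0802), Ctss (-0.55 ± 0.14, adjusted p = 0.0672), H2-Oa (-0.47 ± 0.16) and H2-Ob (-0.18 ± 0.19) were not called either.

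The promoters of the 2 called chains of the class II molecule itself are shown because class II genes are known for a shared regulatory sequence, the Y box. They are RefSeq sequences of build GRCm38.p6, written 5′ to 3′ on the gene's own strand, from 250 bases before the start site to 50 after it. Capitals mark CTGATTGG, the Y box spelling that was searched on both strands.
H2-Aa promoter, chr17:34287774-34288073, minus strand: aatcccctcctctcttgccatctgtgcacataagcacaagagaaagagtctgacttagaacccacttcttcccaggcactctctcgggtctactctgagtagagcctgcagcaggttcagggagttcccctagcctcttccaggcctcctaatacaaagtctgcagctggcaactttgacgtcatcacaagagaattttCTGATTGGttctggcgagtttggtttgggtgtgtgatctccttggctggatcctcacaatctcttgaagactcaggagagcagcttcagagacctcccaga
H2-Eb1 promoter, chr17:34305617-34305916, plus strand: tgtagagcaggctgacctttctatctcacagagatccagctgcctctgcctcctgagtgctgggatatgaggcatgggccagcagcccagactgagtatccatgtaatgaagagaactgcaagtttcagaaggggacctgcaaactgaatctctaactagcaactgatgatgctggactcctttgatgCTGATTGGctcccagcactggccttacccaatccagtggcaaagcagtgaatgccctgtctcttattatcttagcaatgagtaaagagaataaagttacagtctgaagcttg
The match began 51 bases before the start site in H2-Aa and 62 before it in H2-Eb1. CTGATTGG was present in 3 of the 7 class II genes on the list that were tested and have a promoter (42.9%). They were H2-Aa, H2-Eb1 and H2-Oa. Among the promoters of all genes tested it was present in 6.29%. H2-DMb2 was called without a match, and H2-Oa has a match and was not called. A match is a description of these letters and not a bound site.

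Among immunoglobulin light chain genes, 6 of 12 measured were called below the expected level and 0 above, against 1.24% of all genes tested called below. All 12 values were negative, and the median interaction was -1.73. A further 4 light chain genes on the array did not pass the filter. Light chain variable genes of the same family are similar in sequence. Their probe sets may take up RNA from one another, so single names are uncertain. Iglv1, a lambda variable gene, had log2 signals of 4.70, 5.30 and 5.03 in LAP tg/Blnk KO marrow, 9.15, 9.80 and 9.21 in Blnk KO, 11.03, 11.08 and 10.78 in LAP tg and 11.88, 11.93 and 11.68 in wild-type marrow. Its groups were separate, with an interaction of -3.51 ± 0.25 (adjusted p = 1.38e-05), and its other probe sets gave -3.52 and -2.90.

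Igkv8-30, a kappa variable gene, had signals of 8.16, 7.29 and 7.80 in LAP tg/Blnk KO and 12.26, 12.47 and 11.60 in Blnk KO marrow, 11.74, 12.63 and 12.18 in LAP tg and 12.35, 12.14 and 12.61 in wild-type marrow. Only its LAP tg/Blnk KO arrays stood apart, since the other 3 groups overlapped. Its interaction was -4.18 ± 0.37 (adjusted p = 9.96e-05). Igkv9-120 departed by -2.50 ± 0.26, although its other probe set gave -0.29.

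Of 4 heavy chain genes measured, 2 were called below the expected level and 0 above, against 1.24% of all genes tested called below. Igha, the constant region of IgA, had the largest departure of any called gene. Its log2 signals were 4.55, 4.59 and 4.15 in LAP tg/Blnk KO and 11.52, 11.17 and 11.21 in Blnk KO marrow. LAP tg arrays had 10.88, 11.27 and 12.37, and wild-type arrays 10.14, 10.14 and 10.26. The single changes each went with a higher Igha signal than in wild-type, and the joint group was below every other array. Igha fell by 6.87 with LAP in Blnk KO marrow and rose by 1.33 with LAP in wild-type marrow, which gave an interaction of -8.20 ± 0.39 (adjusted p = 2.21e-07). Other Igha probe sets gave -9.47 and -9.86. Ighm, the constant region of IgM, was not called (-0.20 ± 0.13, adjusted p = 0.508), with group means from 12.81 to 13.14, and neither was Ighg3 (-0.12 ± 0.51). Ighv14-2 was called at -0.73 ± 0.13 (adjusted p = 0.00923).

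Jchain, the protein that joins IgA and IgM into polymers, had signals of 3.91, 4.20 and 4.64 in LAP tg/Blnk KO marrow, 9.83, 9.35 and 9.60 in Blnk KO, 9.33, 9.97 and 11.36 in LAP tg and 9.56, 9.37 and 9.82 in wild-type marrow. Only the LAP tg/Blnk KO arrays stood apart, and the interaction was -5.98 ± 0.54 (adjusted p = 9.96e-05). LAP tg array 3 had the highest value of both Jchain and Igha. Without it the interaction was -5.42 for Jchain and -7.78 for Igha, and both were still called. Of the 10 measured plasma cell markers, Jchain was the only one called, against 1.24% of all genes tested called below. Xbp1 (-0.14 ± 0.11), Prdm1 (-0.23 ± 0.26) and Sdc1 (0.15 ± 0.36), which encode the transcription factors of secretion and plasma cell identity and the surface marker CD138, were not called. The list's median interaction was -0.06. Its mean log2 signal, Jchain included, ran from 7.84 to 8.04 in LAP tg/Blnk KO and 8.45 to 8.62 in Blnk KO marrow. In LAP tg marrow the mean ran from 8.98 to 9.096, and in wild-type marrow from 9.004 to 9.06. In the summed linear signal, Mzb1, Sec11c and Xbp1 were the brightest members. That sum ranged from 12360 to 12731 in LAP tg/Blnk KO and 11512 to 13189 in Blnk KO marrow. The sum was 11577 to 12895 in LAP tg and 11140 to 12039 in wild-type marrow. The part of this list in the Igha and Jchain values was not tested.

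Of 24 genes of the pre-B cell receptor pathway, 4 were called below the expected level and 0 above, against 1.24% of all genes tested called below, with a median interaction of -0.11. Blk, a Src-family kinase at the receptor, had log2 signals of 7.52, 7.25 and 6.58 in LAP tg/Blnk KO, 9.22, 9.23 and 8.71 in Blnk KO, 9.65, 9.87 and 9.73 in LAP tg and 9.69, 9.65 and 9.72 in wild-type marrow. LAP tg and wild-type arrays overlapped, the Blnk KO arrays lay lower, and the LAP tg/Blnk KO arrays lay lowest. The interaction was -2.0 ± 0.28 (adjusted p = 0.00207). The Ras activators Rasgrp1 (-1.52 ± 0.17) and Rasgrp3 (-1.34 ± 0.18) and the exchange factor Vav2 (-0.79 ± 0.18) were the others called. The other 3 Rasgrp1 probe sets gave 0.21, -0.31 and 0.06, and the mean over its probe sets was not called (-0.39, adjusted p = 0.599).

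Core parts of the pathway were not called, among them Syk (-0.59 ± 0.18), Btk (0.13 ± 0.13), Plcg2 (0.06 ± 0.13), Cd79a (0.19 ± 0.16) and Cd79b (-0.23 ± 0.14). Of 18 inhibitory receptors and phosphatases, Cd22 (-1.27 ± 0.16) and Siglecg (-0.96 ± 0.19), both sialic-acid-binding receptors that restrain B cell receptor signals, were called below the expected level and 0 above, against 1.24% of all genes tested called below. The call of Siglecg was lost in 7 of the 12 fits that left out 1 array each. The median of that list was -0.39. Ptpn6, the phosphatase these receptors recruit, gave -0.18 ± 0.16, and Fcgr2b, the inhibitory IgG Fc receptor, 0.30 ± 0.13, neither called.

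Immediate early genes, which are transcribed within minutes of receptor signals, had 4 of 29 measured members called below the expected level and 0 above, against 1.24% of all genes tested called below, with a median interaction of -0.44. They were Egr3 (-1.69 ± 0.31), a zinc-finger factor induced by antigen receptors, Zfp36 (-1.15 ± 0.26), which destabilizes cytokine messages, Ier5 (-0.86 ± 0.13) and the NF-κB inhibitor Nfkbia (-0.66 ± 0.14). The call of Zfp36 was lost in 10 of the 12 fits that left out 1 array each. On the values as deposited 1 member of the list was called, and with 1 array left out 2 to 7 were, and a further Egr3 probe set gave 0.20. Egr1 (-0.15 ± 0.26), Ier2 (-0.08 ± 0.18) and Myc (-0.01 ± 0.28) were not called. Fos had the most negative value, -2.74 ± 0.93, but with a spread that left it uncalled (adjusted p = 0.181).

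Of 29 B-lineage transcription factors, 5 were called below the expected level and 0 above, against 1.24% of all genes tested called below, and the list's median was -0.16. Klf2 (-1.55 ± 0.23) governs lymphocyte homing receptors, Ikzf3 (-1.49 ± 0.19) encodes Aiolos, and Brwd1 (-1.23 ± 0.17) is a chromatin reader used in kappa recombination. The call of Brwd1 was lost with all 21 arrays in one fit (-1.19, adjusted p = 0.116). Spib (-1.10 ± 0.19) and Irf8 (-1.07 ± 0.14) encode transcription factors that act at immunoglobulin enhancers and other B-cell genes. Ikzf3 signals were 7.03, 6.81 and 6.69 in LAP tg/Blnk KO, 8.40, 8.51 and 7.97 in Blnk KO, 9.69, 9.55 and 9.44 in LAP tg and 9.61, 9.57 and 9.41 in wild-type marrow. LAP thus went with lower Ikzf3 in Blnk KO marrow, while LAP tg and wild-type arrays overlapped. The lineage determinants Ebf1 (0.52 ± 0.27), Pax5 (-0.49 ± 0.34), Tcf3 (-0.35 ± 0.18) and Ikzf1 (-0.13 ± 0.14) were not called.

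Of 17 homing and adhesion genes measured, 15 had a negative interaction and 2 a positive one. Cxcr5, Ccr7 and the cannabinoid receptor gene Cnr2 (-1.41 ± 0.20) were called below the expected level, against 1.24% of all genes tested. Itga6, the integrin alpha 6 chain that binds laminin, was called above it (1.23 ± 0.24, adjusted p = 0.0174), against 0.487%. Without LAP tg/Blnk KO array 2, Itga6 was no longer called. The list's median was -0.35. S1pr1, the receptor for exit from tissues, gave -0.35 ± 0.30 and Cxcr4, the receptor that keeps cells in marrow, -0.14 ± 0.13, neither called.

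**Figure D3:**
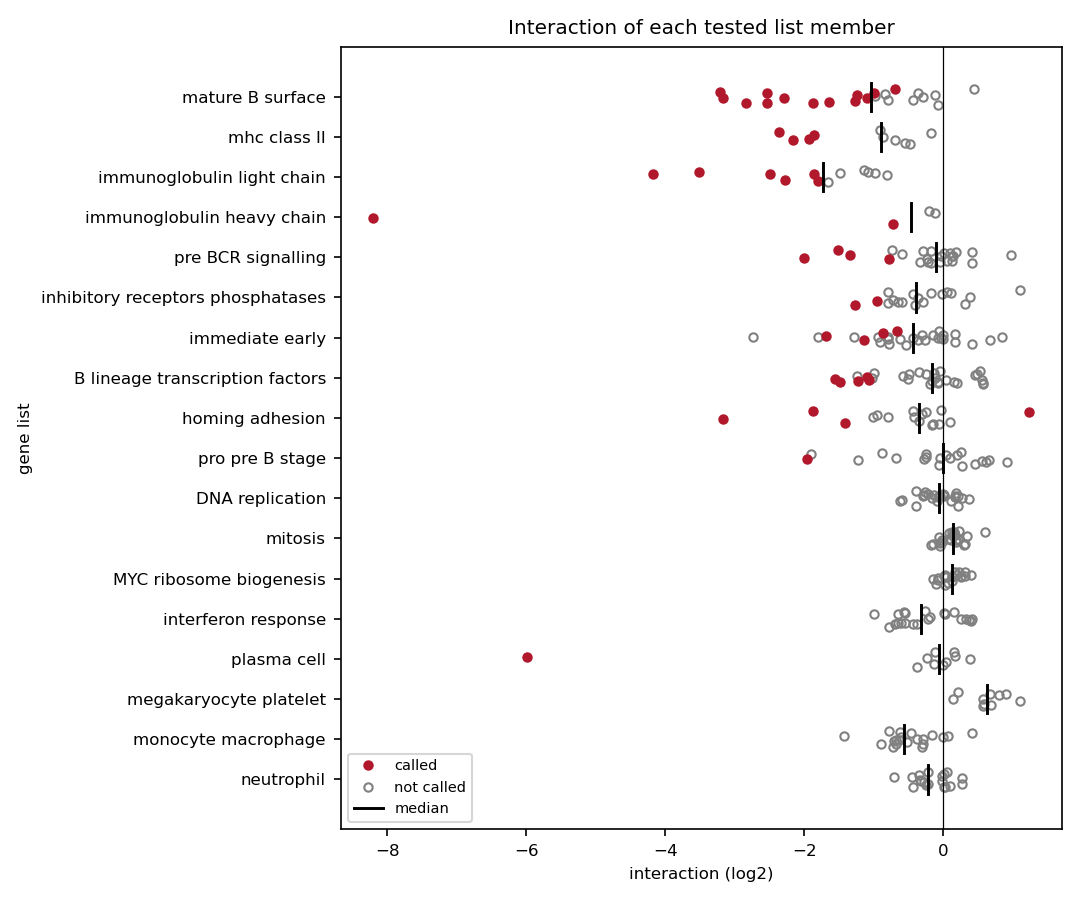
Interaction in log2 units (horizontal axis) of each tested member of 18 gene lists (rows), with called genes in red, others open and the list median as a bar. Called members lie to the left of 0 in the lists of mature B-cell surface proteins, MHC class II and immunoglobulin light chains, whose medians are -1.05, -0.89 and -1.73. The medians of DNA replication, mitosis and MYC targets lie between -0.06 and 0.14.

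Of 20 genes of the pro-B and pre-B stages, only Myl4, a myosin light chain, was called below the expected level (-1.96 ± 0.30), against 1.24% of all genes tested called below, and the call was lost by the mean over its probe sets (-1.26, adjusted p = 0.0878). The values of the list fell evenly on both sides of 0, with 10 positive and 10 negative. The surrogate light chain, a stand-in for the light chain before it is rearranged, was high in all groups. Vpreb1 signals were 13.02, 12.95 and 13.04 in LAP tg/Blnk KO and 12.72, 12.62 and 12.58 in Blnk KO marrow. LAP tg arrays had 11.77, 11.79 and 11.37, and wild-type arrays 11.05, 10.85 and 11.21. Both changes went with a higher level, the groups did not overlap, and the interaction of -0.24 ± 0.16 was not called (adjusted p = 0.514). Igll1 gave 0.26 ± 0.22 and Vpreb3 -0.03 ± 0.13. The recombinase genes Rag1 (0.04 ± 0.22) and Rag2 (0.66 ± 0.23) and the terminal transferase Dntt (0.92 ± 0.34) were not called.

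No member was called among 25 DNA replication, 23 mitosis, 19 MYC target and ribosome biogenesis, 14 interleukin 7 pathway, 12 BCL2 family, 22 interferon response, 16 ATF4 and amino acid, 16 sterol and fatty acid or 5 CEBP family genes by limma. Their medians were -0.06, 0.14, 0.12, -0.23, -0.34, -0.32, -0.15, -0.05 and -0.23 in that order. Over all genes tested 1.73% were called in either direction, so 0 in a list of such size hardly differs from that share. The members nearest the threshold were Mcl1, an anti-apoptotic BCL2 relative, and Ddx58, the RNA sensor RIG-I, each at -0.56 ± 0.13 (adjusted p = 0.0569). Socs2, an inhibitor of cytokine signals, gave -1.13 ± 0.29 (adjusted p = 0.075). A missed threshold does not show that the changes add exactly.

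Genes above the expected level were of mixed function. Fbp1 encodes fructose-1,6-bisphosphatase, an enzyme of gluconeogenesis. Its log2 signals were 9.80, 9.88 and 9.62 in LAP tg/Blnk KO and 5.76, 5.12 and 5.86 in Blnk KO marrow, against 5.44, 5.46 and 5.37 in LAP tg and 3.70, 4.73 and 4.77 in wild-type marrow. The joint group was far above all others. LAP raised Fbp1 18.2-fold in Blnk KO marrow, against a 2.03-fold difference in wild-type marrow, and the interaction was 3.16 ± 0.37 (adjusted p = 0.000776). It was the only called member among 14 glycolysis and gluconeogenesis genes, whose median interaction was 0.04. Over all genes tested 0.487% were called above.

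The chemokine gene Ccl9 and the lipid transporter gene Abca9 were raised by LAP in both backgrounds, and more in Blnk KO marrow. Ccl9 signals were 9.77, 9.01 and 9.51 in LAP tg/Blnk KO, 5.52, 6.30 and 6.38 in Blnk KO, 7.76, 7.74 and 8.44 in LAP tg and 6.45, 6.43 and 6.06 in wild-type marrow. Blnk KO and wild-type arrays overlapped, and the interaction of Ccl9 was 1.70 ± 0.37 (adjusted p = 0.0362). Abca9 rose by 3.26 with LAP in Blnk KO and by 1.59 in wild-type marrow, with an interaction of 1.67 ± 0.38 (adjusted p = 0.0441). Both calls were near the threshold: that of Abca9 was lost in 11 of the 12 fits that left out 1 array each, and that of Ccl9 in 9. Bace1, a membrane protease, gave 1.58 ± 0.34 (adjusted p = 0.0346), a call lost in 8 of those fits, with a LAP change of 2.20 in Blnk KO marrow and 0.62 in wild-type marrow.

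A different shape was a higher level with LAP in Blnk KO marrow and a lower estimate with LAP in wild-type marrow. Stat4, which carries interleukin 12 signals, had log2 signals of 9.12, 9.14 and 9.18 in LAP tg/Blnk KO, 8.14, 7.77 and 7.88 in Blnk KO, 6.71, 6.89 and 7.11 in LAP tg and 7.25, 7.25 and 7.62 in wild-type marrow. The groups did not overlap, and the interaction was 1.68 ± 0.19 (adjusted p = 0.000703). Abi2, a regulator of actin assembly, gave 1.82 ± 0.23 and Igsf5, a junction adhesion protein, 2.03 ± 0.34. Grasp, a receptor scaffold protein, gave 1.66 ± 0.21. Nlrc3, a NOD-like receptor, differed in another way: its LAP change was 0.21 in Blnk KO marrow, not called, and -1.40 in wild-type marrow, for an interaction of 1.61 ± 0.23. Nrgn, a calmodulin-binding protein, had a LAP change of 0.55 in Blnk KO marrow, not called, and -1.33 in wild-type marrow. Its interaction of 1.88 ± 0.36 was no longer called without wild-type array 3.

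For 2 genes above the expected level, the expected level itself lay under 2, the lowest value this scale can take. They were G530011O06Rik (interaction 5.83 ± 0.72, expected level 0.72) and Klk1b8 (3.07 ± 0.62, expected level 0.99), whose call was lost in 7 of the 12 fits that left out 1 array. G530011O06Rik signals were 6.27, 6.90 and 6.47 in LAP tg/Blnk KO, 4.09, 5.42 and 4.44 in Blnk KO, 7.27, 7.25 and 5.85 in LAP tg and 11.95, 10.01 and 10.21 in wild-type marrow. Each single change went with a lower signal, and their sum could not have been measured on this scale.

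**Figure D4:**
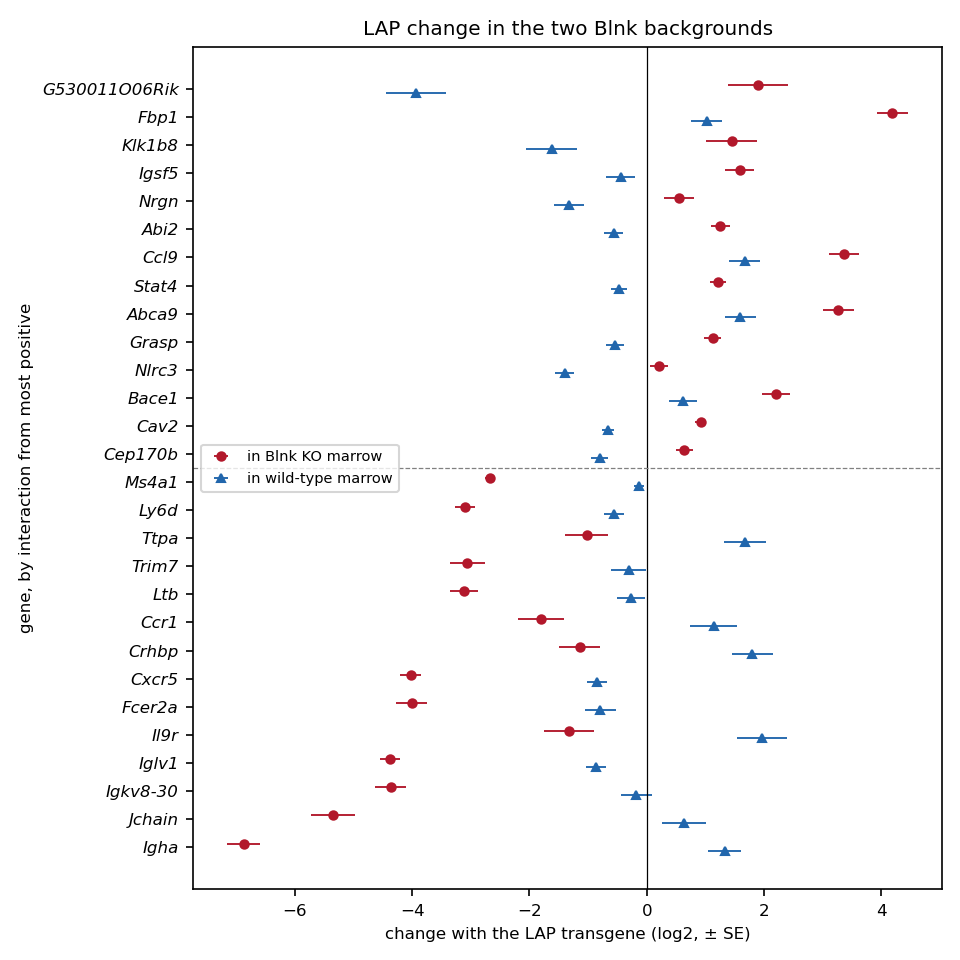
LAP change in log2 units ± SE in Blnk KO marrow (red circles) and in wild-type marrow (blue triangles), 3 arrays a group, for the 14 called genes with the most positive interaction (above the dashed line) and the 14 with the most negative (below it). Ms4a1, Ltb and Trim7 are near 0 in wild-type marrow and at -2.67, -3.11 and -3.06 in Blnk KO marrow, while Igha, Crhbp and Il9r lie on opposite sides of 0.

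In 14 called genes the LAP change was itself called in both backgrounds with opposite signs. Over all genes tested the LAP change was called higher in 3.30% and lower in 4.35% in Blnk KO marrow, and higher in 2.11% and lower in 1.88% in wild-type marrow. Cav2, a caveolin of membrane invaginations, had log2 signals of 8.87, 8.79 and 8.98 in LAP tg/Blnk KO, 8.04, 8.02 and 7.85 in Blnk KO, 7.15, 7.32 and 7.03 in LAP tg and 7.86, 7.84 and 7.78 in wild-type marrow. LAP went with a rise of 0.92 in Blnk KO marrow and a change of -0.66 in wild-type marrow (interaction 1.58 ± 0.14, adjusted p = 9.96e-05), although a further Cav2 probe set gave -0.01. The mean over both was 0.78 and still called (adjusted p = 0.0259), and the call was lost with all 21 arrays in one fit (adjusted p = 0.0859). Pld4, a nuclease of endosomes, ran the other way, with a LAP change of -1.07 in Blnk KO marrow and 0.86 in wild-type marrow (interaction -1.93 ± 0.25), and its call was also lost in that fit (adjusted p = 0.0917). Ahnak, a large scaffold protein, had a LAP change of -0.86 in Blnk KO marrow and 0.75 in wild-type marrow (interaction -1.61 ± 0.26).

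A further set had a higher signal with each change alone and a joint level below their sum. Crhbp, which binds corticotropin-releasing hormone, had log2 signals of 7.29, 6.93 and 7.38 in LAP tg/Blnk KO, 8.54, 8.44 and 8.06 in Blnk KO, 5.62, 5.16 and 4.52 in LAP tg and 3.98, 3.45 and 2.47 in wild-type marrow. The groups were separate, with the joint level between the single ones, and the interaction was -2.94 ± 0.49 (adjusted p = 0.00698). Its wild-type signals all lay under 4.20, the filter level. Il9r, the interleukin 9 receptor, gave -3.29 ± 0.60, but its signals stayed under 4.20 in LAP tg/Blnk KO (2.34 to 2.66) and wild-type marrow (2.39 to 3.04). Ttpa, a vitamin E transfer protein, gave -2.71 ± 0.51.

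Ccl3, an inflammatory chemokine gene, had its highest signals in LAP tg marrow. Its signals were 5.32, 4.81 and 4.45 in LAP tg/Blnk KO, 4.91, 5.09 and 4.61 in Blnk KO, 6.20, 5.79 and 6.06 in LAP tg and 3.92, 2.48 and 4.26 in wild-type marrow. LAP raised Ccl3 by 2.47 in wild-type marrow, with a change of -0.01 in Blnk KO marrow. The interaction was -2.48 ± 0.56 (adjusted p = 0.0453), a call lost in 8 of the 12 fits that left out 1 array. Its wild-type signals of 3.92 and 2.48 lay under 4.20, the filter level, and without wild-type array 2 the interaction was -1.95. Ccr1, a receptor for such chemokines, departed by -2.94 ± 0.56 (adjusted p = 0.0174), and its call was lost without LAP tg/Blnk KO array 3, wild-type array 1 or wild-type array 3.

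By list mean, markers of neutrophils, of monocytes and macrophages and of erythroid cells were highest on LAP tg array 3. The mean log2 signal over 19 neutrophil markers was 10.30 on that array, against 8.62 and 8.08 on the other LAP tg arrays, and ranged from 8.90 to 9.52 in LAP tg/Blnk KO, 7.77 to 8.88 in Blnk KO and 8.01 to 8.47 in wild-type marrow. For 20 monocyte and macrophage markers it was 9.93 on that array, against 8.97 and 8.70, and for 10 erythroid markers 10.35, against 8.85 and 8.0. Of these 49 genes 0 were called by limma, against 1.73% of all genes tested called in either direction. The list medians were -0.22 for neutrophils, -0.57 for monocytes and -0.35 for erythroid cells, and without LAP tg array 3 they were 0.42, -0.21 and 0.31. Lgals3, a galectin of macrophages, had the smallest p of the monocyte list, at -1.43 ± 0.39 (adjusted p = 0.095). Without that array 288 genes were called, 106 above and 182 below the expected level.

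Megakaryocyte and platelet markers leaned the other way. All 10 measured had a positive interaction, with a median of 0.63. For 8 of them the LAP tg/Blnk KO arrays lay above the other 9 (background 7.23%). By limma 0 were called, against 0.487% of all genes tested called above the expected level. Without Blnk KO array 3, 3 were called and the median was 0.95. In that fit 123 of all genes tested were called above, against 65 with every array in. The mean log2 signal of the list was 9.48, 9.19 and 8.91 in LAP tg/Blnk KO, 7.69, 7.73 and 8.69 in Blnk KO, 8.14, 7.95 and 8.61 in LAP tg and 7.70, 7.71 and 7.67 in wild-type marrow. The highest array of Blnk KO marrow was array 3. Gp1bb, a chain of the platelet von Willebrand factor receptor, had the largest value, 1.10 ± 0.43 (adjusted p = 0.244).

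**Figure D5:**
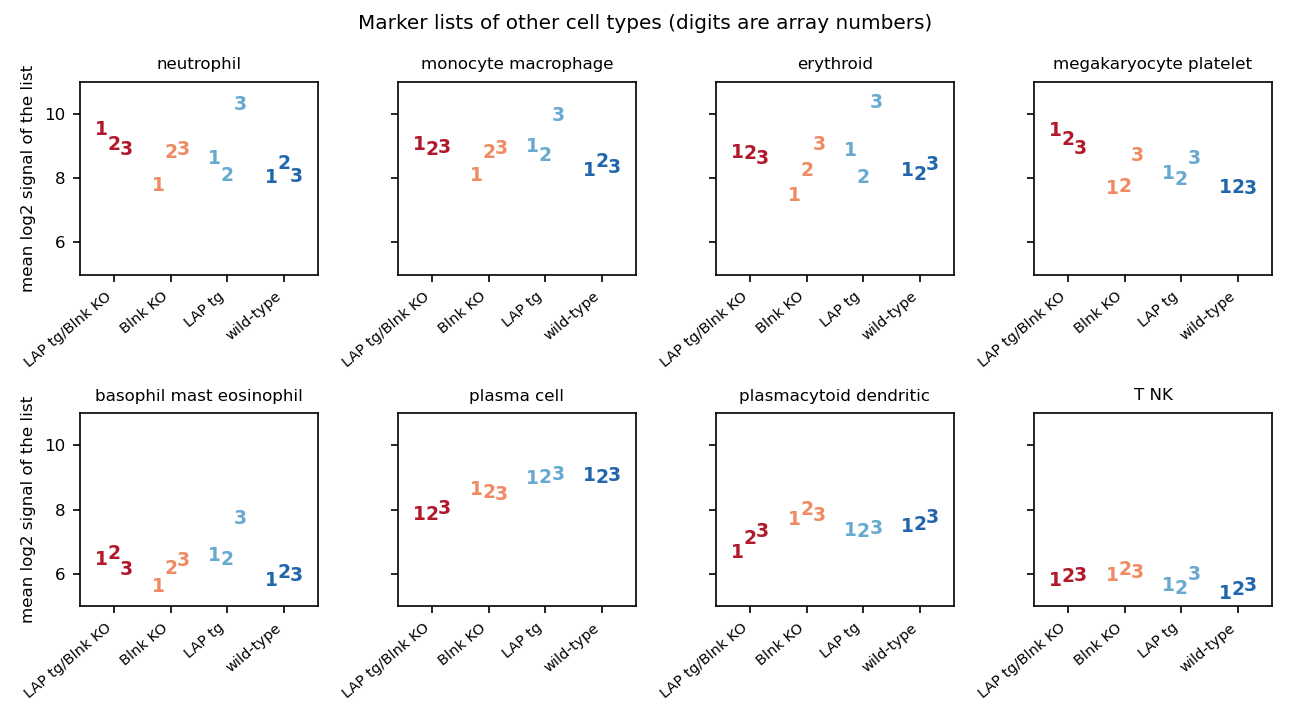
Mean log2 signal (vertical axis) of marker lists of 8 other cell types on each array, with LAP tg/Blnk KO, Blnk KO, LAP tg and wild-type marrow from left to right and digits giving the array number. LAP tg array 3 is highest for neutrophil, monocyte and erythroid markers, at 10.30, 9.93 and 10.35, and the LAP tg/Blnk KO arrays are highest for megakaryocyte markers, at 8.91 to 9.48.

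Plasmacytoid dendritic cell markers, which B220 sorting can include, had a median interaction of -0.66. Of 11 members 1 was called below the expected level, the cytochrome oxidase subunit gene Cox6a2 (-1.41 ± 0.20). Over all genes tested 1.24% were called below. Siglech, a receptor that marks these cells, gave -0.85 ± 0.45 and was not called. The list's mean log2 signal ran from 6.66 to 7.32 in LAP tg/Blnk KO and 7.67 to 7.99 in Blnk KO marrow. In LAP tg marrow it ran from 7.32 to 7.42, and in wild-type marrow from 7.47 to 7.74. The summed linear signal, in which Tcf4 was the brightest member, ran from 2873 to 3575 in LAP tg/Blnk KO and 4247 to 5227 in Blnk KO marrow. The sum was 3122 to 3155 in LAP tg and 3261 to 4042 in wild-type marrow. Of 16 T and NK cell markers only Lat, an adaptor of T-cell receptor signals, was called below the expected level (-1.03 ± 0.18), against 1.24% of all genes tested called below. Its call was lost on the values as deposited (-0.95, adjusted p = 0.064). The part of these cells in the departures of Cox6a2 and Lat was not tested.

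Additivity depends on the scale. On linear signals, all 65 genes called above the expected level kept a positive difference of differences, while 151 of the 166 called below kept a negative one and 15 had a positive one. Those 15 included Iglv1, Fcer2a, Cxcr5, Ccr7, H2-DMb2, H2-Eb1 and Rasgrp1, whose signal in Blnk KO marrow was already below that in wild-type marrow. Iglv1 had mean linear signals of 28.7 in LAP tg/Blnk KO, 680 in Blnk KO, 2001 in LAP tg and 3645 in wild-type marrow. Its LAP ratio was 20.8-fold lower in Blnk KO marrow and 1.82-fold lower in wild-type marrow, yet more linear signal was lost with LAP in wild-type marrow. Ms4a1 had mean linear signals of 831 in LAP tg/Blnk KO, 5333 in Blnk KO, 6622 in LAP tg and 7230 in wild-type marrow, and lay below additivity on both scales. So did Igha, with 17.8 in LAP tg/Blnk KO, 2534 in Blnk KO, 3214 in LAP tg and 1157 in wild-type marrow.

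Probe sets of a gene mostly ran the same way. Of the 231 called genes 118 had a further probe set that was tested, and of these 207 probe sets 180 had the same sign, 46 were called in the same direction and 0 in the opposite one. Sequences around the start sites of the called genes were searched for C/EBP spellings on both strands. TTNCNNAA was present in 53.1% of 49 promoters of genes called above the expected level, 38.0% of 129 of genes called below and 36.3% of 10786 of all genes tested. TTGCGCAA, which is 1 spelling of it, was in 4.08% of promoters of genes called above, 0.775% of those called below and 0.297% of all, or 2, 1 and 32 promoters.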

How the data were processed

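Transcripts were measured on Affymetrix arrays of mouse B220-positive marrow cells. The authors deposited 1 linear intensity per probe set and array, made with MAS5 per the submitters' processing notes, where no version is listed. Whether arrays were brought to the same target value was not known here. Median deposited signals differed with Blnk genotype, at 29.3 ± 1.87 (SD, n = 3) in LAP tg/Blnk KO, 28.8 ± 1.78 in Blnk KO, 21.1 ± 0.265 in LAP tg and 21.5 ± 2.07 in wild-type marrow, and its part in the results was not tested. Arrays of a group correlated with r of at least 0.961.

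From these, 64 control probe sets were left out, a pseudocount of 4 was added and log2 taken, and the 12 arrays were then quantile normalized. The pseudocount understates changes of dim genes. A probe set was tested if its deposited value exceeded its array's 40th percentile on at least 3 of the 12 arrays. Platform annotation named 34945 probe sets with 1 symbol, 932 with several and 9160 with none here, and 34741 matched RefSeq genes by Entrez ID. Each of 18193 genes was represented by the probe set with the highest mean over all 21 arrays, and 13342 passed the filter. Group means were fitted without covariates with limma 3.58.1 in R 4.3.3 (lmFit, eBayes with an intensity trend), tested on simulated data first.

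Named genes were the 14 called with the largest positive and the 14 with the largest negative interaction, up to 3 called members of each list (or the member with the smallest p where none was called), up to 6 with opposite called LAP changes, and Cebpb, Blnk and Xist. Other list members are given as examples, chosen after their values were seen. The comparison and the gene lists were chosen with earlier results of these data known, and Iglon5, which is no light chain gene, was taken off a list defined by its name pattern. Promoter sequences are from RefSeq, build GRCm38.p6, and 10786 of the genes tested have one. Alternatives tried were the scaling, pseudocount, filter, choice of probe set, intensity trend, array weights, replicate block, a fit of all 21 arrays and leaving out each array.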

Additional observations from a re-analysis of the deposited data

Results flagged for a closer look

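The LAP change differed between Blnk KO and wild-type marrow for 231 genes, by the interaction test. For 14 of them the LAP change was called in both backgrounds with opposite signs.

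Of these, 8 rose with LAP in Blnk KO marrow and fell with LAP in wild-type marrow. The interaction was 5.83 for G530011O06Rik, 1.58 for Cav2, 1.44 for Cep170b, 1.09 for the actin-binding profilin gene Pfn2, 1.05 for Smad1, a mediator of BMP signals, 0.99 for Frmd6, 0.77 for Fam136a and 0.66 for B9d2, a protein of the ciliary transition zone. The other 6 fell with LAP in Blnk KO marrow and rose with it in wild-type marrow. The interaction was -8.20 for Igha, -1.93 for Pld4, -1.61 for Ahnak, -1.39 for choline kinase Chka, -1.36 for Rassf4 and -1.30 for Inpp4a, a phosphoinositide phosphatase.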

How the results depend on the processing

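Each called one of the 71 named genes kept its direction in every alternative fit that gave it a value, while the number of called genes moved. Of those not called, Cebpb and Ddit3 changed sign by the mean over probe sets (-0.28 and 0.21) and Padi4 without LAP tg array 3 (0.12). Against 231 called (65 above and 166 below the expected level), 123 were called on the values as deposited (43 and 80), 148 without an intensity trend (47 and 101), 602 with array weights (233 and 369) and 613 with all 21 arrays in one fit (276 and 337). The cause of these shifts was not tested. Median centring gave 176. The replicate block gave 247 and added the call of E2f2. The numbers were not taken to pair arrays: deviations of like-numbered arrays correlated with r from -0.096 to 0.266 over 18 pairs, above 0.1 in 2, and 6 of 12 arrays were closest to their own number. Testing each probe set separately was an alternative chosen after seeing the data. Of 24708 probe sets tested 319 were called, 102 above and 217 below. By the mean over probe sets the calls of Rasgrp1, Rasgrp3, Egr3, Ier5, Grasp, Myl4, Zfp36 and Bace1 were lost. Calls were also lost on the values as deposited for Abca9, Ccl3, Ier5, Ighv14-2, Lat and Zfp36, with all 21 arrays for Brwd1, Cav2, Pld4 and Rasgrp3, and without an intensity trend for Abca9, Bace1, Ccl3, Ccl9, Ccr1, Ighv14-2, Siglecg and Zfp36. The cause was not tested. Leaving out 1 array gave 133 to 370 called, 34 to 123 above and 99 to 247 below. The count was lowest without Blnk KO array 2 (133) and highest without Blnk KO array 3 (370), and moved by over 1.5 times without LAP tg/Blnk KO array 3 (146), wild-type array 1 (139) or wild-type array 3 (139). The lowest array weight was 0.361, of LAP tg array 3. The median interaction of all genes was 0.11 on the values as deposited, against 0.02. The medians of the DNA replication, pre-B cell receptor, plasma cell, surrogate light chain, pro-B and pre-B stage and sterol lists changed sign with that scaling, to 0.06, 0.06, 0.09, 0.06, 0.14 and 0.01, and all but the sterol list also did with median centring. Called members of the mature B-cell surface list numbered 9 on the values as deposited and 10 to 15 without 1 array. The signal floor limits departures of genes whose joint level is dim: 13 of the 166 lay under the filter level of 4.20.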
